A study of Mus musculus with 3 samples.

Results

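The genes of heme synthesis, heme breakdown and the P450 reductase were examined as a group of 9 genes in mouse liver: the synthesis enzymes Alas1, Alad, Uros, Urod, Cpox, Ppox and Fech, the heme oxygenase gene Hmox1, and Por. They were taken by gene symbol from the 41799 genes measured in each library, and all 9 averaged 1 CPM or more over the libraries, as did 13153 genes in all. CPM is the read count scaled to a common library size. The symbols were selected on function with the counts and ratios of these same libraries already known, so what follows describes their levels and tests none of them. RNA sequencing was done on whole liver of male C57BL/6 mice (C57BL/6J in the housing protocol) aged 14 weeks. There was 1 library per group: mice on a high-fat diet (HFD) given DfCS-Ib at 40 mg/kg by oral gavage in distilled water, mice on the high-fat diet alone, and mice on regular chow. DfCS-Ib is a code name for what the series calls a sulfated oligosaccharide. The groups held 8 mice each, and the labels state neither how many mice contributed to a library nor whether the other groups received a gavage of water.

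Heme is the iron-containing ring that cytochromes, catalase and other hemoproteins carry. Its synthesis begins in the mitochondrion with aminolevulinic acid synthase, passes through the cytosol and ends in the mitochondrion with ferrochelatase, which inserts the iron. In liver, Alas1 is the rate-limiting step and is repressed by heme, and much of the heme made goes to the microsomal cytochromes P450. These cytochromes receive their electrons from the reductase encoded by Por, which also serves heme oxygenase and squalene epoxidase.

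The libraries held between 10969699 and 12279537 counts, of which albumin took 8.91% to 11.0%, and the listed hepatocyte markers, 9 of 9 with counts, summed to 144349, 130219 and 162593 CPM in the DfCS-Ib, high-fat and chow libraries. Of these markers Cps1 alone passed 2-fold in a comparison, with 78.0, 48.4 and 112 CPM. With 1 library per group no difference has a replicate check and no p-value is given. Every comparison is of these libraries, not of the conditions. Folds are ratios of scaled counts, and the range in parentheses after a fold is a 95% exact (Clopper-Pearson) interval, which covers counting error only. In whole tissue, fewer cells of a type and less RNA per cell cannot be told apart.

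The stretches just before 4 of the start sites are shown because these genes carry the differences described further on: Por and Urod passed 2-fold in a comparison, Alas1 lay at the 2-fold line in another, and Alad lay in the same direction as Urod. Each run is the 250 bases before a RefSeq start (GRCm38.p6, the assembly of mm10), written 5′ to 3′ on the gene's own strand, with the start just after the last base. Capitals mark every match, on either strand, to 6 motifs: the E-box CACGTG, the GC box GGGCGG, the CCAAT box CCAAT, the GATA motif GATAAG, the D-box TTANGTAA and the antioxidant response element TGACNNNGC.
Por (chr5:135688895-135689144, plus strand): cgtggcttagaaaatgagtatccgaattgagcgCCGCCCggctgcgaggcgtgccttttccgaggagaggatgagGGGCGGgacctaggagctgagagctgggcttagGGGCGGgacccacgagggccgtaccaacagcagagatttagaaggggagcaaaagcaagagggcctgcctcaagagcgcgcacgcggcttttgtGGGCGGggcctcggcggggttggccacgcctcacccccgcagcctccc
Alas1 (chr9:106247955-106248204, minus strand): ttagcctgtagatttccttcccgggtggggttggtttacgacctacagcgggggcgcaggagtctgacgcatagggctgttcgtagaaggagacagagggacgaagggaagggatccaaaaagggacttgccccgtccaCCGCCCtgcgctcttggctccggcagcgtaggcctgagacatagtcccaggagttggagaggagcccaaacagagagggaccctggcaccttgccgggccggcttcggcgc
Alad (chr4:62520064-62520313, minus strand): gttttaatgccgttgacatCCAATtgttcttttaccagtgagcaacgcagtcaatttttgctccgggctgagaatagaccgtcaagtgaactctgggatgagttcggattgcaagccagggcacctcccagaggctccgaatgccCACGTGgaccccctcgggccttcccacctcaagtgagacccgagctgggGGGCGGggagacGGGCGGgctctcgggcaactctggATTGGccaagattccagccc
Urod (chr4:116994414-116994663, minus strand): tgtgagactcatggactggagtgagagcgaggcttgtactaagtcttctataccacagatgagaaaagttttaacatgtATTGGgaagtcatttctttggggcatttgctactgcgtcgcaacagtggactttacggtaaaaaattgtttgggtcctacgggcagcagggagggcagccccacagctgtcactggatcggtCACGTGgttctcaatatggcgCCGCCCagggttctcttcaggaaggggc
The Por window held 4 GC boxes and no other of these motifs, and the Alas1 window held 1 GC box. The Alad and Urod windows each held an E-box, 105 to 100 bases before the start in Alad and 49 to 44 bases before it in Urod, with 2 GC boxes and 2 CCAAT boxes in Alad and 1 of each in Urod. No match overlapped another in these 4 windows. RefSeq lists a second start for Alas1, 224 bases further in, whose window held none of the motifs, and one for Alad, 154 bases further in, whose window held 6 GC boxes, 1 E-box and 1 CCAAT box. Of 32851 promoter windows of this length in the RefSeq table, 6.02% held the E-box, 32.7% the GC box, 33.8% the CCAAT box, 6.55% the GATA motif, 2.06% the D-box and 10.2% the antioxidant response element. Of the other members, Ppox, which lay in the same direction as Alad and Urod, held 4 CCAAT boxes and no E-box. Cpox held the GATA motif, and the outermost Uros start held an E-box and a GC box. A further Uros start also held the GATA motif, 69 to 64 bases before it. RefSeq windows were matched for 7 of the 9 genes, the exceptions being Fech and Hmox1. The RefSeq start of Por lies 19105 bases inside the gene model of the deposited files, and that of Urod 23 bases inside, while the outermost starts of Alas1 and Alad coincide with the deposited ones. A match is a description of the letters and not a binding site.

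Set per length, as the authors' RPKM (reads scaled by gene length and library total), the members spanned a wide range and their order differed between libraries. Por led in the DfCS-Ib library at 339 RPKM and in the chow library at 282 RPKM, but stood at 71.3 RPKM in the high-fat library, below Alas1 and next to Cpox at 71.6 RPKM. Por ranked 153 of 11407 protein-coding genes analysed in the DfCS-Ib library, 731 in the high-fat library and 171 in the chow library. Alas1 was the highest of the synthesis genes in each library, with 167, 127 and 83.1 RPKM in the DfCS-Ib, high-fat and chow libraries, and Cpox followed it among them in each. Ppox and Uros were the lowest of the 9 throughout, between 3.37 and 6.51 RPKM. Neighbours in the order whose 95% exact Poisson intervals overlapped were Cpox and Por, Fech and Urod, and Ppox and Uros in the high-fat library, and Hmox1 and Alad, and Uros and Ppox in the chow library. In the DfCS-Ib library every neighbour was separated by more than counting error. The plot of levels along the pathway shows this order.

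**Figure D1:**
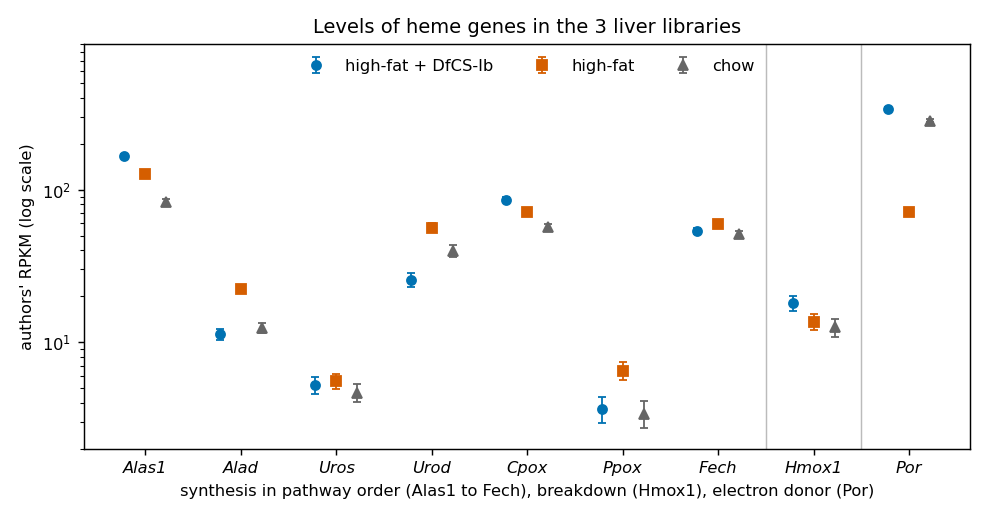
Levels of the 9 genes as the authors' RPKM on a log axis, with the synthesis genes in pathway order, then Hmox1 and Por; circles, squares and triangles are the DfCS-Ib, high-fat and chow libraries, and bars are 95% exact Poisson intervals of the counts. Por lies at 71.3 RPKM in the high-fat library, against 339 and 282 RPKM in the DfCS-Ib and chow libraries, while Fech stays between 50.9 and 59.4 RPKM.

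Among the 7 synthesis genes the DfCS-Ib library differed from the high-fat library both ways. Alas1 and Cpox were higher with DfCS-Ib, Alad, Urod and Ppox were lower, and Uros and Fech lay within counting error at this scaling. Over the 9 members, 1 gene, Por, was at least 2-fold higher on the log2 ratio of CPM plus 1, and 1 gene, Urod, was at least 2-fold lower. Over all 13153 genes, 2.46% lay 2-fold or more above and 2.02% as far below, and 48.5% had log2 ratios above 0. Without the TMM scaling factors the split over all genes turned, with 261 genes higher and 339 lower in place of 324 and 266. The median log2 ratio was -0.05 over the 7 synthesis genes, 0.01 over the 9 members and -0.01 over all genes analysed.

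Between the high-fat and chow libraries all 7 synthesis genes had log2 ratios above 0, between 0.12 for Fech and 0.78 for Ppox. Their median was 0.40, and that over all genes 0.02. None of the 7 reached 2-fold, and of the 9 members 0 were at least 2-fold higher and 1, Por, was at least 2-fold lower. Over all genes 3.47% were at least 2-fold higher and 2.27% lower, and 51.9% had log2 ratios above 0. With the authors' RPKM in place of CPM, 404 genes were higher and 166 lower over all genes, against 457 and 298. Between the DfCS-Ib and chow libraries 0 members reached 2-fold in either direction, where 1.62% of all genes were higher and 0.433% lower by as much. The comparisons share libraries, so a gene high in the high-fat library tends to appear in both of the comparisons that use it.

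Alas1, the rate-limiting enzyme (chr9:106233455-106247954, minus strand), had 5963, 5094 and 2987 counts in the DfCS-Ib, high-fat and chow libraries, or 556, 396 and 278 CPM. It was highest with DfCS-Ib and lowest on chow. The fold was 1.40 (1.35 to 1.46) for DfCS-Ib over high-fat, 1.43 (1.36 to 1.49) for high-fat over chow, and 2.00 (1.92 to 2.09) for DfCS-Ib over chow. On the log2 ratio of CPM plus 1 the last of these was 0.999, just under the 2-fold line. Without the scaling factors or with a pseudocount of 0.5 it was on or above that line.

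Cpox, the coproporphyrinogen oxidase of the mitochondrial intermembrane space (chr16:58670208-58680391, plus strand), took the same order of libraries. It had 2995, 2800 and 2000 counts, or 279, 218 and 186 CPM, in the DfCS-Ib, high-fat and chow libraries. DfCS-Ib was above high-fat by 1.28-fold (1.22 to 1.35), high-fat was above chow by 1.17-fold (1.11 to 1.24), and DfCS-Ib was above chow by 1.502-fold (1.42 to 1.59). Alas1 and Cpox were the 2 synthesis genes highest in the DfCS-Ib library beyond counting error.

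Alad, Urod and Ppox were instead highest in the high-fat library. Alad, which joins aminolevulinic acid into porphobilinogen (chr4:62505984-62520063, minus strand), had 584, 1303 and 648 counts in the DfCS-Ib, high-fat and chow libraries, or 54.4, 101 and 60.2 CPM. It was 1.86-fold (1.69 to 2.05) lower with DfCS-Ib than with the high-fat diet alone, and 1.68-fold (1.53 to 1.85) higher in the high-fat than in the chow library. DfCS-Ib and chow differed by 0.904-fold (0.807 to 1.01), an interval that holds 1.

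Urod, the cytosolic uroporphyrinogen decarboxylase (chr4:116990212-116994436, minus strand), had 355, 876 and 552 counts in the DfCS-Ib, high-fat and chow libraries, or 33.1, 68.1 and 51.3 CPM. It was lowest with DfCS-Ib, by 2.06-fold (1.82 to 2.33) against high-fat and by 1.55-fold (1.35 to 1.78) against chow, and it was the one synthesis gene below chow beyond counting error. Its log2 ratio of CPM plus 1 for DfCS-Ib over high-fat was -1.02, close to the 2-fold line, and -0.94 with a pseudocount of 5. High-fat was above chow by 1.33-fold (1.19 to 1.48).

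Ppox, which oxidises protoporphyrinogen (chr1:171276991-171281203, minus strand), was the least abundant by count, with 107, 215 and 100 counts in the DfCS-Ib, high-fat and chow libraries. Its scaled level was 9.97, 16.7 and 9.29 CPM in the same libraries. It was 1.68-fold (1.32 to 2.13) lower with DfCS-Ib than with high-fat, and 1.80-fold (1.41 to 2.30) higher in high-fat than in chow. The DfCS-Ib and chow libraries were not separated at this depth, with a fold of 1.07 (0.809 to 1.42).

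The other two synthesis genes were nearly level. Uros, the uroporphyrinogen III synthase gene (chr7:133686142-133710519, minus strand), had 234, 279 and 211 counts, or 21.8, 21.7 and 19.6 CPM, in the DfCS-Ib, high-fat and chow libraries. All of its intervals held 1, the widest bounds being 0.842 and 1.35. Uros shares 1187 bases with the opposite-strand gene Bccip (702, 915 and 706 counts), and without a stated strand setting their reads cannot be told apart. Fech, ferrochelatase (chr18:64456542-64489095, minus strand), had 1724, 2144 and 1650 counts, or 161, 167 and 153 CPM. Its fold was 0.964 (0.905 to 1.03) for DfCS-Ib over high-fat, 1.09 (1.02 to 1.16) for high-fat over chow and 1.05 (0.979 to 1.12) for DfCS-Ib over chow. The summed RPKM of the 7 synthesis genes was 352, 349 and 251 in the DfCS-Ib, high-fat and chow libraries, of which Alas1 made up 47.4%, 36.5% and 33.1%. The RPKM of Alas1 was 14.8, 5.68 and 6.69 times that of Alad in the same libraries, and 6.52, 2.26 and 2.10 times that of Urod.

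**Figure D2:**
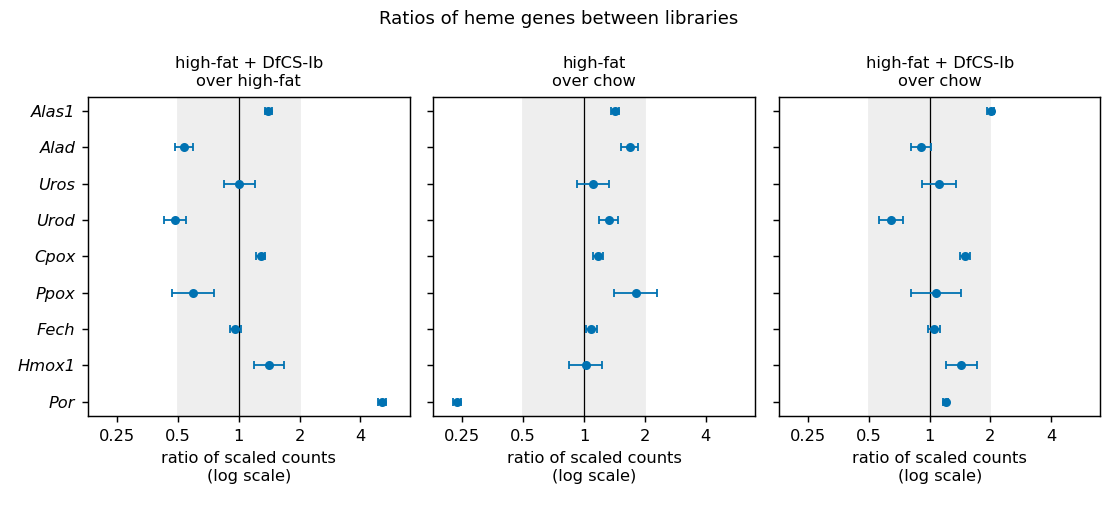
Ratios of scaled counts (log axis) of the 9 genes for DfCS-Ib over high-fat, high-fat over chow and DfCS-Ib over chow; points are ratios, bars 95% exact intervals for counting error, and the grey band is the range within 2-fold. Por lies outside the band in the 2 comparisons that use the high-fat library, at 5.10 and 0.236, and Urod just outside it at 0.486 for DfCS-Ib over high-fat. Alas1 lies on its edge at 2.00 for DfCS-Ib over chow.

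Hmox1, the inducible heme oxygenase that opens the heme ring (chr8:75093618-75100593, plus strand), had 311, 264 and 217 counts in the DfCS-Ib, high-fat and chow libraries, or 29.0, 20.5 and 20.2 CPM. It was higher with DfCS-Ib, by 1.41-fold (1.20 to 1.67) over high-fat and by 1.44-fold (1.20 to 1.72) over chow, while high-fat and chow lay within counting error at 1.02-fold (0.847 to 1.22). Macrophages, which break down red cells, also use Hmox1. Their listed markers summed to 870, 485 and 402 CPM over 13 genes in the same libraries, none of them at 0, and 13 of 13 had log2 ratios above 0 for DfCS-Ib over high-fat, of which Cd163, Marco and Emr1 were at least 2-fold higher. For DfCS-Ib over chow 6 of 13 were, namely Clec4f, Emr1, Cd5l, C1qb, Cd163 and C1qc, and 0 were 2-fold lower in any comparison. Over all genes analysed, 48.5% had log2 ratios above 0 for DfCS-Ib over high-fat and 2.46% were at least 2-fold higher. For DfCS-Ib over chow 1.62% were at least 2-fold higher. The part of these cells in the Hmox1 difference was not tested. Hmox2, the constitutive oxygenase, was the more abundant of the pair, with 44.2, 34.5 and 42.9 RPKM against 17.99, 13.6 and 12.5 RPKM of Hmox1. Hmox2 overlaps the opposite-strand gene Cdip1, which had 2144, 1168 and 2291 counts and was likewise lowest in the high-fat library.

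In the comparisons that use the high-fat library, Por (chr5:135670040-135735326, plus strand) differed more than any other member. It had 9704, 2284 and 8110 counts in the DfCS-Ib, high-fat and chow libraries, or 904, 177 and 754 CPM, so the high-fat library stood apart. DfCS-Ib was above high-fat by 5.10-fold (4.87 to 5.34), high-fat was below chow by 4.25-fold (4.05 to 4.45), and DfCS-Ib was above chow by 1.20-fold (1.17 to 1.24). By absolute log2 ratio of CPM plus 1, Por ranked 55 of 13153 genes for DfCS-Ib over high-fat and 113 for high-fat over chow. Of 2 opposite-strand gene models inside Por, neither had more than 4 counts in a library.

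**Figure D3:**
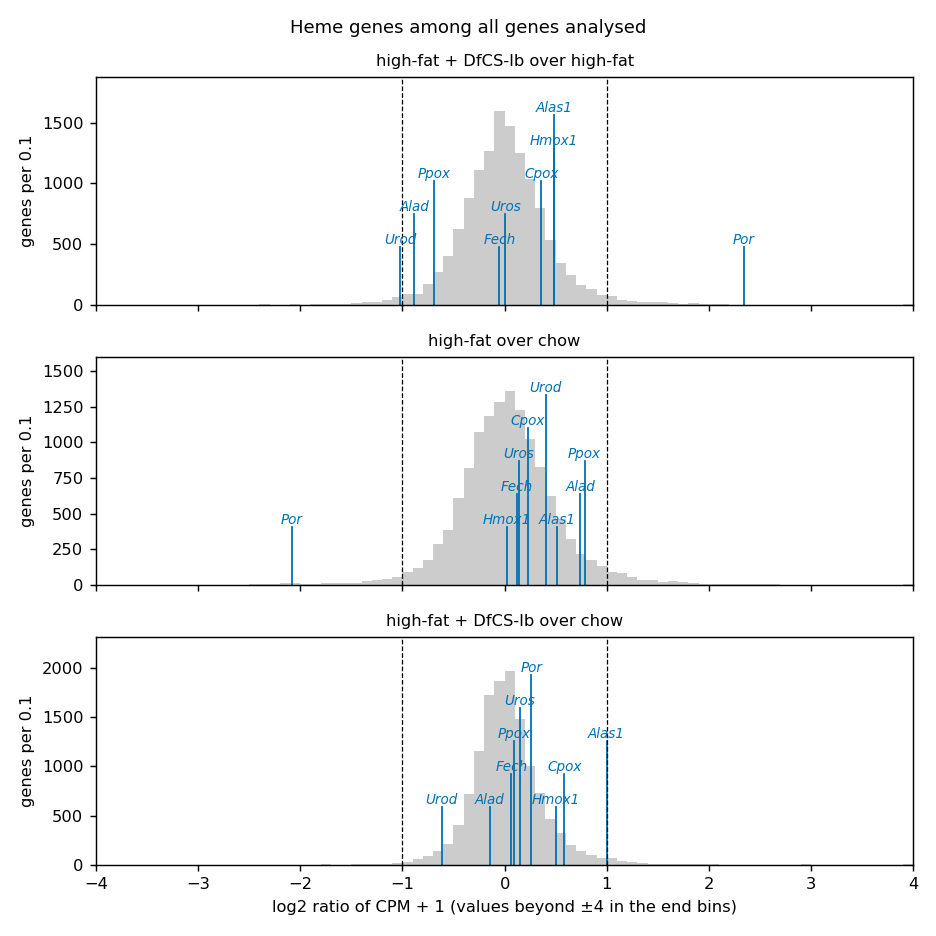
Histograms of the log2 ratio of CPM plus 1 over the 13153 genes analysed, in bins of 0.1, for DfCS-Ib over high-fat, high-fat over chow and DfCS-Ib over chow, with the 9 genes as labelled lines, whose heights only separate the labels, and dashed lines at 2-fold. Por lies in the tails at 2.34 and -2.08 in the first pair of panels and at 0.26 in the lowest.

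Some of the microsomal cytochromes that depend on Por shared its pattern, and others did not. Of 29 listed cytochromes and other hemoproteins analysed, 5 were at least 2-fold higher and 1 lower for DfCS-Ib over high-fat. In that comparison 19 of the 29 had log2 ratios above 0 (median 0.28), against 48.5% of all genes. For high-fat over chow 5 were higher and 8 lower (median -0.01), and for DfCS-Ib over chow 6 were higher and 2 lower (median 0.09). Over all genes analysed, 2.46% were at least 2-fold higher and 2.02% lower for DfCS-Ib over high-fat. The shares were 3.47% and 2.27% for high-fat over chow, and 1.62% and 0.433% for DfCS-Ib over chow. These 29 include Tdo2, Cat and the mitochondrial Cyp27a1, which are not microsomal cytochromes. Of those, Tdo2 alone passed 2-fold, at 0.456-fold (0.448 to 0.463) for high-fat over chow. Cyp51 is given with the electron transfer partners. Cyp4a14 and Cyp4a10, fatty acid omega-hydroxylases, were low in the high-fat library as Por was, at 4251, 674 and 6035 CPM and at 2240, 327 and 2232 CPM in the DfCS-Ib, high-fat and chow libraries. Cyp26b1, a retinoic acid hydroxylase, and Cyp17a1, a steroid hydroxylase, were low there too, with 25.2, 2.18 and 36.1 CPM and with 41.0, 8.94 and 70.0 CPM. Cyp2c29, Cyp2b10 and Cyp2c70 were instead lowest on chow. Cyp2c29 had 2561, 3577 and 673 CPM in the DfCS-Ib, high-fat and chow libraries, Cyp2b10, a target of the receptor CAR, 28.9, 37.1 and 7.06 CPM, and Cyp2c70 387, 414 and 109 CPM. Cyp26a1 was lowest with DfCS-Ib, at 3.36 CPM, against 17.1 and 21.0 CPM in the high-fat and chow libraries. The Cyp2c and Cyp4a genes are close copies, so the division of reads within each family is uncertain, and an opposite-strand model overlaps Cyp17a1.

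Per length, 27 listed microsomal cytochromes summed to 15134, 12503 and 13385 RPKM in the DfCS-Ib, high-fat and chow libraries. Per RPKM of Por this was 44.6, 175 and 47.5, and 37.0, 169 and 36.0 with Cyp4a10 and Cyp4a14 left out. The high-fat library thus had the lowest level of Por for its level of cytochromes.

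**Figure D4:**
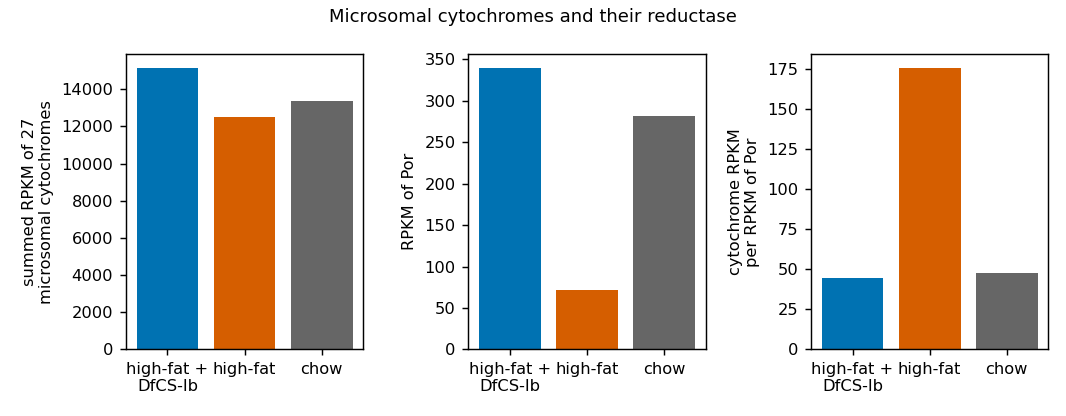
Summed RPKM of 27 microsomal cytochromes, RPKM of Por, and the quotient of these sums, with 1 bar for each of the DfCS-Ib, high-fat and chow libraries and axes from 0. The cytochrome sum ranges between 12503 and 15134 RPKM, and the quotient is 175 in the high-fat library, against 44.6 and 47.5 in the DfCS-Ib and chow libraries.

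The listed partners in electron transfer, some of which receive electrons from Por, did not follow it in the comparisons with the high-fat library. Of 9 listed partners, 0 were at least 2-fold higher and 4 lower for DfCS-Ib over high-fat, and 4 were higher and 0 lower for high-fat over chow. The shares over all genes analysed were 2.46% higher and 2.02% lower in the former, and 3.47% and 2.27% in the latter. The same 4 genes passed in each comparison: the carriers Cyb5r3 and Cyb5b, and Sqle and Cyp51, which are not carriers. Cyb5r3, the cytochrome b5 reductase, had 202, 421 and 177 CPM in the DfCS-Ib, high-fat and chow libraries, and Cyb5b, the outer mitochondrial membrane form of cytochrome b5, had 222, 708 and 192 CPM. Per length, Por was 3.78 times Cyb5r3 in the DfCS-Ib library, 0.356 times in the high-fat library and 3.60 times in the chow library. Sqle and Cyp51, sterol synthesis enzymes that take electrons from Por, had 10.4, 87.0 and 5.95 CPM and 47.9, 242 and 35.0 CPM in the same libraries. Cyb5a, the microsomal cytochrome b5, had 1016, 1008 and 674 CPM. For DfCS-Ib over chow, where Por was 1.20-fold higher, 6 of the 9 partners had log2 ratios above 0 (median 0.19) and 0 reached 2-fold. Over all genes 50.9% lay above 0 there, and 1.62% were at least 2-fold higher and 0.433% lower. Beyond counting error in that comparison, Sqle was 1.76-fold (1.28 to 2.43), Cyb5a 1.51-fold (1.46 to 1.55), Cyp51 1.37-fold (1.19 to 1.57), Cyb5b 1.16-fold (1.09 to 1.23) and Cyb5r3 1.14-fold (1.08 to 1.22) higher.

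Of 21 further genes of heme metabolism and transport, 1 was at least 2-fold higher and 0 lower for DfCS-Ib over high-fat, with 15 of the 21 below 0 and a median log2 ratio of -0.19. For high-fat over chow 2 were higher and 1 lower (median 0.17), and for DfCS-Ib over chow 0 reached 2-fold (median 0.01). Over all genes analysed, 2.46% were at least 2-fold higher and 2.02% lower for DfCS-Ib over high-fat, and 48.5% lay above 0. The shares were 3.47% and 2.27% for high-fat over chow, and 1.62% and 0.433% for DfCS-Ib over chow. Abcb10, a transporter of the inner mitochondrial membrane, was highest in the high-fat library, with 28.2, 53.2 and 24.2 CPM in the DfCS-Ib, high-fat and chow libraries. Tmem14c, a mitochondrial protein needed for porphyrin import in erythroid cells, had 58.6, 100.1 and 63.7 CPM.

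Hpx, which encodes the plasma heme scavenger hemopexin, had 5919, 2729 and 3296 CPM in the DfCS-Ib, high-fat and chow libraries. On the log2 ratio of CPM plus 1 it was the member of that list at least 2-fold higher for DfCS-Ib over high-fat. Mfsd7c, the older name of Flvcr2, a transporter described as carrying heme and choline, had 9.51, 4.35 and 18.6 CPM. Its fold for DfCS-Ib over high-fat was 2.18 (1.56 to 3.08), but its log2 ratio of CPM plus 1 was 0.973, just under the 2-fold line. The biliverdin reductase genes Blvra and Blvrb, which act after heme oxygenase, had 8.11, 10.6 and 5.39 CPM and 83.3, 104 and 63.2 CPM. The plot of these lists by gene gives the remaining members.

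**Figure D5:**
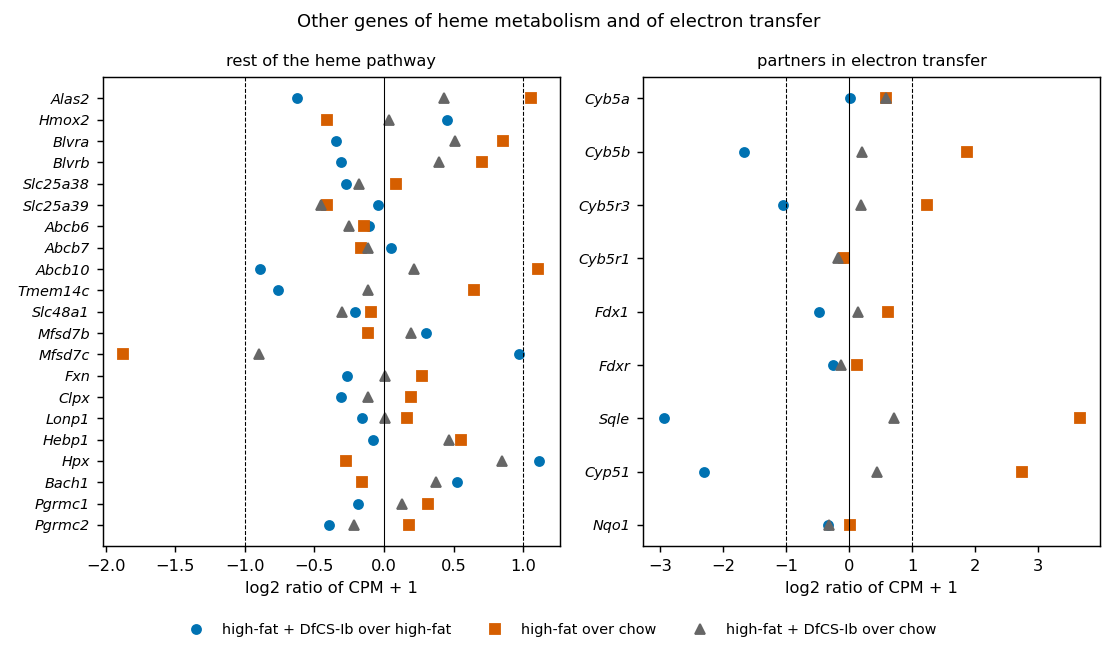
Log2 ratios of CPM plus 1 for 21 further genes of heme metabolism and transport and for 9 electron transfer partners; circles are DfCS-Ib over high-fat, squares high-fat over chow and triangles DfCS-Ib over chow, with dashed lines at 2-fold. In the right panel Sqle, Cyp51, Cyb5b and Cyb5r3 lie below -1 for DfCS-Ib over high-fat and above 1 for high-fat over chow, and in the left panel Mfsd7c lies lowest at -1.87 for high-fat over chow.

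Red cell precursors express most of these enzymes, so erythroid markers were set beside them. Alas2, the erythroid isozyme of Alas1, had 835, 1549 and 619 counts in the DfCS-Ib, high-fat and chow libraries, or 77.8, 120 and 57.5 CPM, and was, like Alad, Urod and Ppox, highest in the high-fat library. The other 9 matched markers, mostly globins and none at 0, summed to 430.2, 229 and 259 CPM in the same libraries, lowest where Alas2 was highest. Hbb-b1, the adult beta globin gene, made up most of this with 354, 186 and 209 CPM. Slc4a1, which encodes the anion exchanger of the red cell membrane, had 16, 1 and 5 counts. For DfCS-Ib over high-fat 2 of 8 erythroid markers analysed, Hbb-b2 and Hbb-bs, were at least 2-fold higher and 0 lower, and 6 of the 8 had log2 ratios above 0. The 2 below 0 were Alas2 and Klf1, an erythroid transcription factor gene. Over all genes analysed, 2.46% were at least 2-fold higher in that comparison and 2.02% lower, and 48.5% had log2 ratios above 0. Klf1 had 2.80, 3.96 and 4.83 CPM, a log2 ratio of -0.39 for DfCS-Ib over high-fat within counting error, and was 0.579-fold (0.356 to 0.924) for DfCS-Ib over chow. The part of erythroid RNA in the differences of Alad, Urod and Ppox was not tested. Alas2 overlaps the opposite-strand gene Apex2 (196, 206 and 170 counts), and the globin genes are close copies. Per length, Alas1 was 4.34, 2.00 and 2.93 times Alas2 in the DfCS-Ib, high-fat and chow libraries.

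Among 15 regulators described for Alas1 or Por, 4 were at least 2-fold higher and 0 lower for DfCS-Ib over high-fat, and 14 of the 15 had log2 ratios above 0 (median 0.55). For high-fat over chow 0 were higher and 2 lower (median -0.27), and for DfCS-Ib over chow 2 were higher and 0 lower (median 0.32). Over all genes analysed, 2.46% were at least 2-fold higher and 2.02% lower for DfCS-Ib over high-fat, and 48.5% had log2 ratios above 0. The shares were 3.47% and 2.27% for high-fat over chow, and 1.62% and 0.433% for DfCS-Ib over chow. The list was not divided by whether a regulator raises or lowers its target. Ppargc1a, a fasting-induced coactivator of Alas1, had 328, 143 and 362 counts in the DfCS-Ib, high-fat and chow libraries, or 30.6, 11.1 and 33.6 CPM. Foxo1, an insulin-restrained transcription factor gene, had 72.1, 38.2 and 77.8 CPM, and Ppara 617, 288 and 421 CPM. These 3 were lowest in the high-fat library, as Por was and Alas1 was not. The clock genes Nr1d1 and Dbp were highest with DfCS-Ib and lowest on chow, which is the order of Alas1, with 97.0, 42.1 and 31.5 CPM and 13.1, 6.06 and 3.35 CPM. The related genes of the list did not take that order: Tef had 112, 61.3 and 79.5 CPM, Nr1d2 76.1, 48.8 and 59.1 CPM and Nfil3 44.5, 32.1 and 42.3 CPM, lowest in the high-fat library. Hlf, with 41.1, 40.2 and 43.9 CPM, lay within counting error in each comparison. Nr1i3 and Nr1i2, the receptors CAR and PXR that induce Alas1 and Por on drug exposure, had 137, 133 and 139 CPM and 124, 92.6 and 98.0 CPM. The labels give no hour of tissue collection and no time since feeding, so neither can be told apart from the groups. The part of any regulator in the member differences was not tested. Dbp, with 141, 78 and 36 counts, overlaps the opposite-strand gene Sphk2, which had 709, 755 and 488 counts and was also lowest on chow.

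Over the 3 libraries the genes nearest in pattern were found by the distance between their log2 ratios (DfCS-Ib over high-fat and high-fat over chow) among 7712 other genes with a mean of 10 CPM or more. For Por they were Tbc1d8 with 80.1, 13.9 and 61.7 CPM in the DfCS-Ib, high-fat and chow libraries, at a distance of 0.10, Zbtb16 at 0.17 and Usp2 at 0.23. For Alas1 they were Tyrobp at 0.015, C1qc at 0.025 and Pkm at 0.030, and those for Hmox1 included Zfp426 at 0.023 and LOC105246278 at 0.031. With 3 libraries many genes lie close to a moderate pattern, and Por, with its large ratios, had more distant neighbours than Alas1 or Hmox1.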

How the data were processed

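RNA sequencing of liver gave 1 library per group, grouped by the labels. The authors deposited a table per library with raw read counts for 41799 genes and an RPKM value for each, per the file headers. The deposited RPKM equalled the count over the stated length and the file's own total to within 0.000506% where a gene had 100 counts or more. TopHat2 and the mm10 build are named in the submitters' processing notes. How reads were counted per gene (tool, strand, multiple placements, annotation release) is not given in the sources used here, so overlapping and near-identical genes are uncertain.

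The DfCS-Ib, high-fat and chow libraries held 10969699, 12279537 and 11028671 counts. They were put on the CPM scale by edgeR 4.0.16 (R 4.3.3), whose TMM factors were 0.978, 1.05 and 0.976. A gene listed at 0 could have up to 3 counts, or 0.280, 0.233 and 0.279 CPM. Genes averaging 1 CPM or more were analysed, a log2 ratio was taken on CPM plus 1, and a gene was counted where it was at least 2-fold. Single folds carry no pseudocount. The binomial split of the counts gave their intervals, and Poisson intervals were used for levels, all at 95% and for counting error only (scipy 1.17.1). The counting rule was tested on simulated data. A single library per group allowed no p-value.

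The 9 members, the 8 gene lists and the alternatives were chosen with earlier results of these data known. Of 118 listed symbols 117 were matched, 5 of them by NCBI gene ID (Ahsp was not). From each list up to 8 genes with the largest ratios past 2-fold were to be named, with Alas2 and partner enzymes where needed. Tmem14c, Blvra, Blvrb, Cyb5a, Hmox2, Nr1i2, Nr1i3, Bach1, Nfe2l2, Tef, Nr1d2, Nfil3, Hlf, Srxn1, Slc40a1, Klf1, Hbb-b1, Slc4a1, Tdo2, Cat and Cyp27a1 were added after their values were seen. The 3 genes nearest in pattern were sought for Alas1, Hmox1 and Por. A few genes of the lists and of these neighbours are not reported here. Promoter sequences are RefSeq's (GRCm38.p6). Other scalings (DESeq2 1.42.0 size factors among them), pseudocounts, filters and a 1.5-fold threshold were tried.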

Additional observations from a re-analysis of the deposited data

How the results depend on the processing

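Under the other scalings and pseudocounts the 27 log2 ratios of the members (9 genes in 3 comparisons) kept their sign, except Uros for DfCS-Ib over high-fat, which was 0.01 and lay between -0.09 and 0.02; filters and thresholds cannot change these ratios. Por lay between 2.23 and 2.35 for DfCS-Ib over high-fat and between -2.09 and -1.97 for high-fat over chow. Fech for DfCS-Ib over high-fat was -0.05, and -0.15 without TMM factors or with the authors' RPKM. Intervals of folds were taken with the TMM factors only, so whether a fold lay within counting error was not checked at other scalings. Without TMM factors the median over all genes shifted to -0.10 for DfCS-Ib over high-fat and to 0.11 for high-fat over chow. Member counts at the 2-fold line moved: for DfCS-Ib over chow, against 0 higher, 1 was higher without TMM factors (Alas1) and 1 with a pseudocount of 0.5, and for DfCS-Ib over high-fat, against 1 lower (Urod), 0 were lower with a pseudocount of 5. With a 1.5-fold threshold 3 were lower for DfCS-Ib over high-fat, 2 were higher for high-fat over chow, and 1 was higher and 1 lower for DfCS-Ib over chow.

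Counts over all genes depended on the settings. For DfCS-Ib over high-fat, against 324 higher and 266 lower, they were 176 higher with RPKM, 166 and 128 with a pseudocount of 5, 203 and 140 with a minimum of 10 CPM, and 1002 and 942 at 1.5-fold. For high-fat over chow, against 457 and 298, they were 166 lower with RPKM, 230 and 164 with a pseudocount of 5, 261 and 185 with a minimum of 10 CPM, and 1370 and 1015 at 1.5-fold. For DfCS-Ib over chow, against 213 and 57, they were 125 and 31 with RPKM, 95 lower with the 50 most abundant genes out of the total, 103 lower with a pseudocount of 0.5, 82 and 21 with a pseudocount of 5, 110 and 25 with a minimum of 10 CPM, and 748 and 402 at 1.5-fold. A larger pseudocount, a stricter filter and a lower threshold change these counts by construction; for the other scalings the cause was not tested. No paired analysis was possible because each group had 1 library, and none could be left out. Ppox, with 100 to 215 counts, and Uros and Hmox1 had the widest intervals of the members.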

Other observations

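Hmox1 is a textbook target of the activator NRF2 and the heme-sensing repressor BACH1, and 11 further genes of that kind were analysed. For DfCS-Ib over high-fat 0 were at least 2-fold higher and 3 lower, and 10 of the 11 had log2 ratios below 0, with a median of -0.33, while that of Hmox1 was 0.48. For high-fat over chow 2 were higher and 0 lower (median 0.06), and for DfCS-Ib over chow 0 reached 2-fold (median -0.20). Over all genes analysed, 48.5% had log2 ratios above 0 for DfCS-Ib over high-fat, 2.46% were at least 2-fold higher and 2.02% lower. The shares were 3.47% and 2.27% for high-fat over chow, and 1.62% and 0.433% for DfCS-Ib over chow. The part of NRF2 or BACH1 in the Hmox1 difference was not tested. Gclc, which encodes the catalytic subunit of glutamate-cysteine ligase, had 183, 595 and 210 CPM in the DfCS-Ib, high-fat and chow libraries. Osgin1, an oxidative stress response gene, had 67.1, 186 and 71.4 CPM, and Me1, the malic enzyme that makes NADPH, 43.3, 116 and 61.2 CPM. Bach1 itself had 80.0, 55.2 and 61.6 CPM and Nfe2l2, which encodes NRF2, 54.8, 77.0 and 51.5 CPM. The target with a ratio above 0 was Srxn1, which encodes sulfiredoxin, at 0.06, and Slc40a1, the iron exporter gene, lay at -0.02; both were within counting error. Osgin1 overlaps Mlycd by 73 bases, and Me1 overlaps an opposite-strand model with at most 1 count.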
